A study of Homo sapiens with 9 samples.

Results

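MDA-MB435S melanoma cells that carried a mutant of WWOX, called WFPA, were compared with cells that carried an empty vector (EV). The comparison took in the 3 arrays whose names mark the mutant and the 3 whose names mark EV, out of 9 arrays in the series. The other 3 arrays (cells with wild-type WWOX) are given as a further level beside them. They also entered the fit, and so the estimate of spread behind each standard error and p-value. RNA of cells grown in DMEM with serum was read on Affymetrix U133 Plus 2.0 arrays, a 1-colour platform on which several probe sets can read the same gene. WWOX is a protein with WW domains, short modules that bind proline-rich stretches of partner proteins, and the WFPA mutation lies in the WW domain that binds most of these partners. Constructs were brought in with a lentiviral vector, and stable clones were selected with G418. Each group may therefore be a single clone, so that a difference between clones and an effect of the construct cannot be told apart. Nothing in the sources says that the 3 arrays of a group came from separate cultures, and p-values measure only the spread between these arrays, which may be technical.

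The names and a second label field of the deposited arrays conflict. A vector entry of wild-type WWOX stands with the arrays named EV, and no vector stands with those named for wild-type WWOX, while wox+ is part of each EV name. Groups were taken from the names, and the WWOX transcript was read first as a check of them. At its brightest probe set log2 expression was 9.26, 8.80 and 8.74 on the EV arrays, 10.35, 10.12 and 10.25 on the WFPA arrays and 10.80, 10.83 and 10.34 on the wild-type arrays. The WFPA arrays thus all lay above the EV arrays, with a difference of 1.30 (standard error 0.174, limma adjusted p = 0.00285). Of the other 4 WWOX probe sets, 1 rose from 4.49 to 7.64 between the group means, which was 3.14 higher in WFPA cells (adjusted p = 2.42e-05). The rest had differences of 0.00, 1.59 and -0.73, none of which passed the call limits. The last of these was bright (9.11 in EV and 8.38 in WFPA cells). Its WFPA arrays all lay below its EV arrays (limma adjusted p = 0.0433, under 2-fold). At the brightest probe set wild-type cells lay 0.42 above WFPA cells (adjusted p = 0.141), so this check does not tell those groups apart. The direction of every difference below rests on the array names.

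WWOX is known as a tumor suppressor and partner of many signaling proteins. Cells that run short of amino acids, or whose protein folding in the endoplasmic reticulum (ER) is disturbed, phosphorylate the translation factor eIF2 and then translate the transcription factor ATF4. ATF4 in turn raises genes of amino acid synthesis, amino acid uptake and tRNA charging. Melanoma cells are further known for switching between states that differ in matrix, adhesion and cell cycle genes.

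Clear separation of the mutant from the EV cells was seen over all probe sets. Correlations between arrays over all probe sets were 0.994 to 0.996 within EV, 0.996 within WFPA and 0.988 to 0.989 between the groups. The first principal component of these 6 arrays held 56.2% of the variance and put the EV arrays at -40.9 to -43.9 and the WFPA arrays at 41.6 to 43.5. EV replicate 2 stood apart from the other EV arrays on the next component (-41.5 against 17.6 and 25.2, 14.2% of the variance). A probe set was called when its Benjamini-Hochberg adjusted p from limma was under 0.05 and the groups differed at least 2-fold. Each gene was read at its brightest probe set, and log2 values are used throughout, so that a difference of 1 is a 2-fold change. Of 19775 genes, 304 were called higher in WFPA cells (1.54%) and 137 lower (0.693%). The EV and WFPA arrays overlapped in none of these 441 genes, which the call limits favor. Over all genes, all WFPA arrays lay above all EV arrays in 16.3% and below them in 19.1%. At least 4-fold differences were found in 75 higher and 22 lower genes. RNA came from whole cultures, in which a lower level in every cell and fewer cells with the transcript cannot be told apart.

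The gene that rose most was FSTL5, which encodes a secreted follistatin-like protein. It was read at 3.43, 3.04 and 2.55 on the EV arrays and 9.23, 9.37 and 9.16 on the WFPA arrays, a difference of 6.25 (standard error 0.189, adjusted p = 6.51e-07). HAPLN1, the link protein that fastens proteoglycans to hyaluronan, was read at 4.79, 4.70 and 4.58 in EV and 9.79, 9.76 and 9.72 in WFPA cells, which was 5.07 higher (standard error 0.133, adjusted p = 3.02e-07), and all 4 of its probe sets were called. Both genes thus went from levels near or below the lower quartile of the arrays (4.23 to 4.34) to levels above the upper quartile of an array (8.45 to 8.59). No background level is given with the values, so the size of a change that starts or ends below the lower quartile is uncertain, which applies to 36 of the risers and 20 of the genes that fell.

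Other large rises were in genes of varied function. The cyclic AMP phosphodiesterase PDE4B rose by 4.19, from 5.82, 6.62 and 5.99 to 10.37, 10.29 and 10.34. FUT1, which makes the H blood group sugar, rose by 4.12, from 7.63, 7.64 and 7.64 to 11.86, 11.68 and 11.74. The zinc finger gene ZFP82 rose by 4.68, the peroxidasin relative PXDNL by 4.37 and the mitochondrial carrier SLC25A21 by 4.10, each from a mean under 4. Genes of neurons and secretory cells were also among the 15 largest rises, namely the presynaptic scaffold PCLO (3.96), the prohormone convertase chaperone SCG5 (3.95) and AUTS2 (3.89). The remaining ones were the olfactory receptor pseudogene OR7E19P (4.06), SGCE (3.86), PLAC8 (3.49), the matrix gene ECM2 (3.47) and the noncoding RNA LINC01133 (3.47). OR7E19P belongs to a family of near-identical copies and is uncertain for that reason. AUTS2 was called at 1 of 3 probe sets (lowest difference -0.01). ECM2 and LINC01133 were called at 1 of 2 (the other -0.21 and 0.45).

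CMPK2, a mitochondrial nucleotide kinase gene known to respond to interferon, fell most. Its EV arrays read 7.83, 7.42 and 7.73 and its WFPA arrays 2.85, 3.45 and 3.60, so that it fell by 4.36 (standard error 0.366, adjusted p = 2.2e-04). The claudin-like membrane protein TMEM47 fell by 4.29, from 7.94, 7.66 and 7.94 to 2.74, 3.41 and 4.51. RNF144A, a ubiquitin ligase gene, fell by 3.98, from 8.11, 7.92 and 8.25 to 4.47, 4.09 and 3.77, while its other probe set differed by -0.12 (not called). These 3 genes ended with means under the lower quartile. Further falls were in the retinaldehyde dehydrogenase ALDH1A3 (-3.25), the procollagen peptidase ADAMTS2 (-3.15), the gap junction connexin GJA1 (-3.05), the junctional adhesion molecule JAM3 (-2.61), the collagenase MMP1 (-2.59) and the secreted serpin SERPINF1 (-2.57). DCDC2 (-3.70), LYPD6B (-3.52), PLCXD3 (-3.58), LOC151760 (-3.73), ACTL8 (-2.75) and ABCA8 (-2.50) completed the 15 largest falls. Among these falls, ALDH1A3 and DCDC2 were called at 1 of 2 probe sets (the other 0.12 and -0.28). ABCA8 was called at 1 of 3 (the others -0.09 and -0.26).

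**Figure D1:**
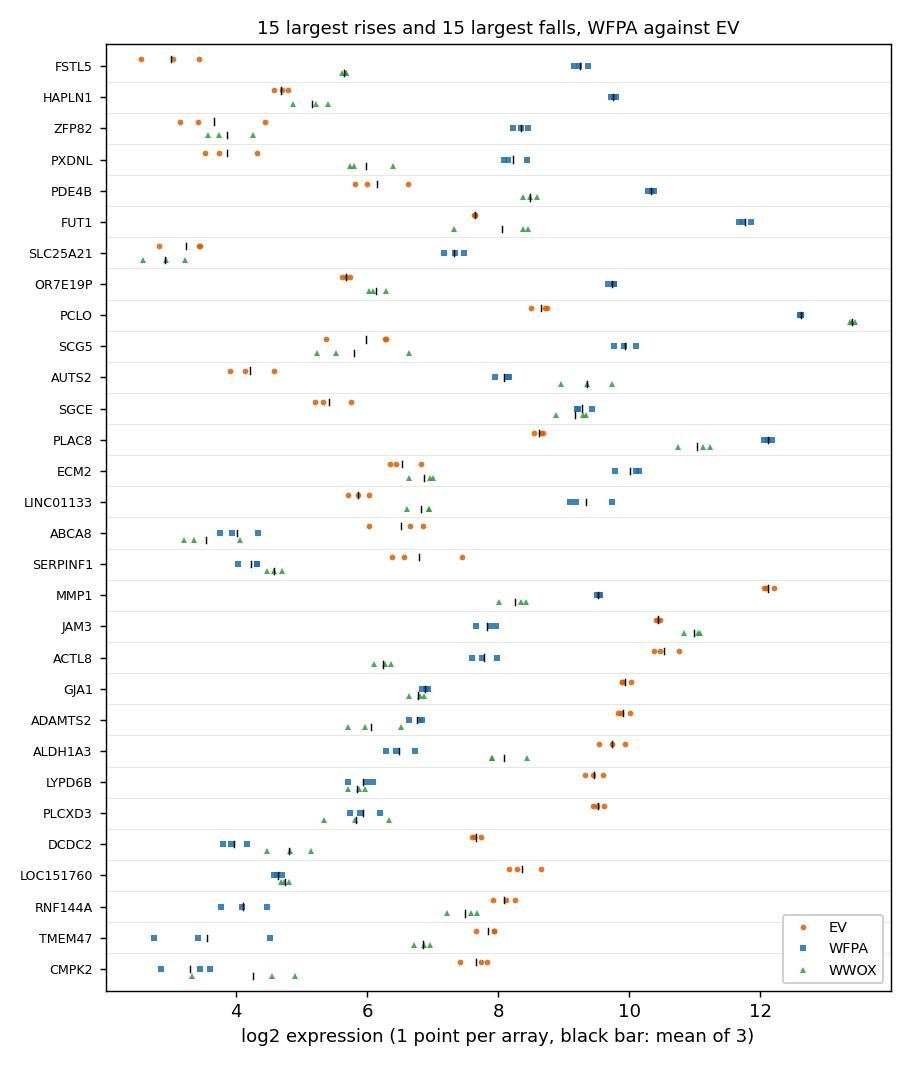
The x axis gives log2 expression and the y axis the 15 genes that rose most and the 15 that fell most between EV and WFPA cells, 1 point per array, with the mean of 3 arrays as a black bar. The EV and WFPA points lie apart in every row because only genes without overlap of these arrays were chosen. The wild-type WWOX points, shown for reference, lie near the EV points for HAPLN1 (5.16 against 4.69) and near the WFPA points for SGCE (9.17 against 9.28).

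Wild-type cells gave a further level for these genes, from contrasts that share arrays with the one above. HAPLN1 was read at 5.16 ± 0.271 (SD, n = 3) in wild-type cells, 0.47 above EV (not called) and 4.60 below WFPA cells (adjusted p = 2.58e-07). FUT1 (8.05 ± 0.625), ZFP82 (3.85 ± 0.358), SLC25A21 (2.91 ± 0.322) and SCG5 (5.79 ± 0.741) likewise differed from WFPA cells with a call and from EV cells without one. For PCLO the wild-type level was 13.40 ± 0.0379, 0.78 above WFPA cells (not called), and for SGCE it was 9.17 ± 0.251, which differed from WFPA cells by -0.11 (adjusted p = 0.699). Among the falls, GJA1 was at 6.77 ± 0.111 and LYPD6B at 5.85 ± 0.134 in wild-type cells, whereas RNF144A (7.49 ± 0.235) and JAM3 (10.98 ± 0.131) were not called between wild-type and EV cells. The leading genes therefore held some in which the mutant cells stood apart from both other groups and some in which the EV cells did. In others the wild-type cells were called different from both groups. Examples were FSTL5 (2.64 from EV and -3.61 from WFPA cells) and MMP1 (-3.85 and -1.27).

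Most genes of the amino acid stress response that ATF4 drives were higher in the mutant cells. Of 41 listed genes, all measured, 21 were called higher (51.2%, against 1.54% of all genes) and 0 lower. This list and those below were chosen with earlier results of these data known, so such shares describe the lists and test nothing. The median difference of the list was 1.14, against -0.04 over all genes, and 39 of 41 differences were above 0. On 35 of 41 genes (85.4%) all WFPA arrays lay above all EV arrays, against 16.3% of all genes, and on 1 gene, ATF5 (-0.49, not called), below, against 19.1%. Among the 4942 genes with a mean above the upper quartile of gene means (10.03) these shares were 26.9% and 30.7%. The median level of the list on single arrays was 9.86 to 9.92 in EV and 11.06 to 11.16 in WFPA cells. The number of calls was 21 when any single array was left out.

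ATF4 itself was read at 13.49, 13.49 and 13.58 on the EV arrays and 14.34, 14.31 and 14.34 on the WFPA arrays. The groups did not overlap, and the difference of 0.81 (standard error 0.0784, adjusted p = 4.76e-04) stayed under the 2-fold limit. Among partner and target transcription factors of ATF4, DDIT3 (also known as CHOP) rose by 1.61, from 8.59, 8.77 and 8.76 to 10.51, 10.24 and 10.21 (standard error 0.148, adjusted p = 3.63e-04). ATF3 rose by 1.45, from 8.10, 8.48 and 8.23 to 9.74, 9.60 and 9.82. The stress-induced nuclear protein gene NUPR1 rose by 1.66, from a mean of 11.95 to 13.61. CEBPB (0.45) and CEBPG (0.63), which pair with ATF4 on DNA, were higher at adjusted p-values of 0.0166 and 0.0107 but under 2-fold. The pseudokinase TRIB3, a feedback inhibitor of ATF4, rose by 1.28, from 9.40, 9.38 and 9.33 to 10.67, 10.63 and 10.67.

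Several enzymes that make amino acids were called higher and others of the list were not. Asparagine synthetase, ASNS, was read at 10.53, 10.53 and 10.50 in EV and 12.68, 12.78 and 12.79 in WFPA cells, a 4.69-fold change (log2 difference 2.23, standard error 0.0786, adjusted p = 1.68e-06). Its other probe set was dim and did not differ enough to be called (3.23 and 3.28). The serine synthesis genes PHGDH (1.44) and PSAT1 (1.31) were called, and PSPH, the last enzyme of that pathway, was 0.51 higher (adjusted p = 0.0263) and not called. Genes of cysteine synthesis rose too, CTH by 2.00 and CBS by 1.82. In the mitochondrial folate pathway ALDH1L2 rose by 2.04, from 7.06, 7.67 and 7.53 to 9.46, 9.47 and 9.45, while MTHFD2 (0.85) and SHMT2 (0.56) were higher at adjusted p-values of 7.33e-04 and 0.00294 and under 2-fold. The proline synthesis genes PYCR1 (0.23, adjusted p = 0.456) and ALDH18A1 (0.02, adjusted p = 0.952) did not pass the test.

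Amino acid carriers formed a further group of risers. SLC7A11, the cystine carrier, was read at 8.62, 8.56 and 8.66 in EV and 11.13, 11.20 and 11.34 in WFPA cells, which was 6.08-fold higher (log2 difference 2.60, standard error 0.108, adjusted p = 3.65e-06), and all 3 of its probe sets were called. SLC7A5 (1.64) and SLC3A2 (1.14), which together form the carrier of large neutral amino acids, were called. The neutral amino acid carriers SLC1A4 (1.46) and SLC1A5 (1.27) were called too. The arginine carrier SLC7A1 (0.44, adjusted p = 0.0163) and the glutamine carrier SLC38A2 (0.25, adjusted p = 0.0979) were not. Thus 5 carriers of the list passed both limits.

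Secreted and regulatory members were also called. INHBE, which encodes an inhibin beta chain and rose most of the list, was read at 6.97, 6.94 and 6.87 in EV and 10.21, 10.04 and 10.08 in WFPA cells, 3.18 higher (standard error 0.282, adjusted p = 3.03e-04). The stress cytokine GDF15 rose by 2.26, from 9.93, 9.75 and 10.05 to 12.28, 12.11 and 12.13. CHAC1, an enzyme that breaks down glutathione, rose by 2.04, from 7.23, 7.38 and 7.16 to 9.27, 9.36 and 9.24. DDIT4 (2.34) and SESN2 (1.69), both inhibitors of the growth kinase mTORC1, were called, as was TXNIP (1.46), which binds thioredoxin. The list's phosphatase subunit PPP1R15A, which restores translation by dephosphorylating eIF2, differed by 0.13 (adjusted p = 0.571).

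**Figure D2:**
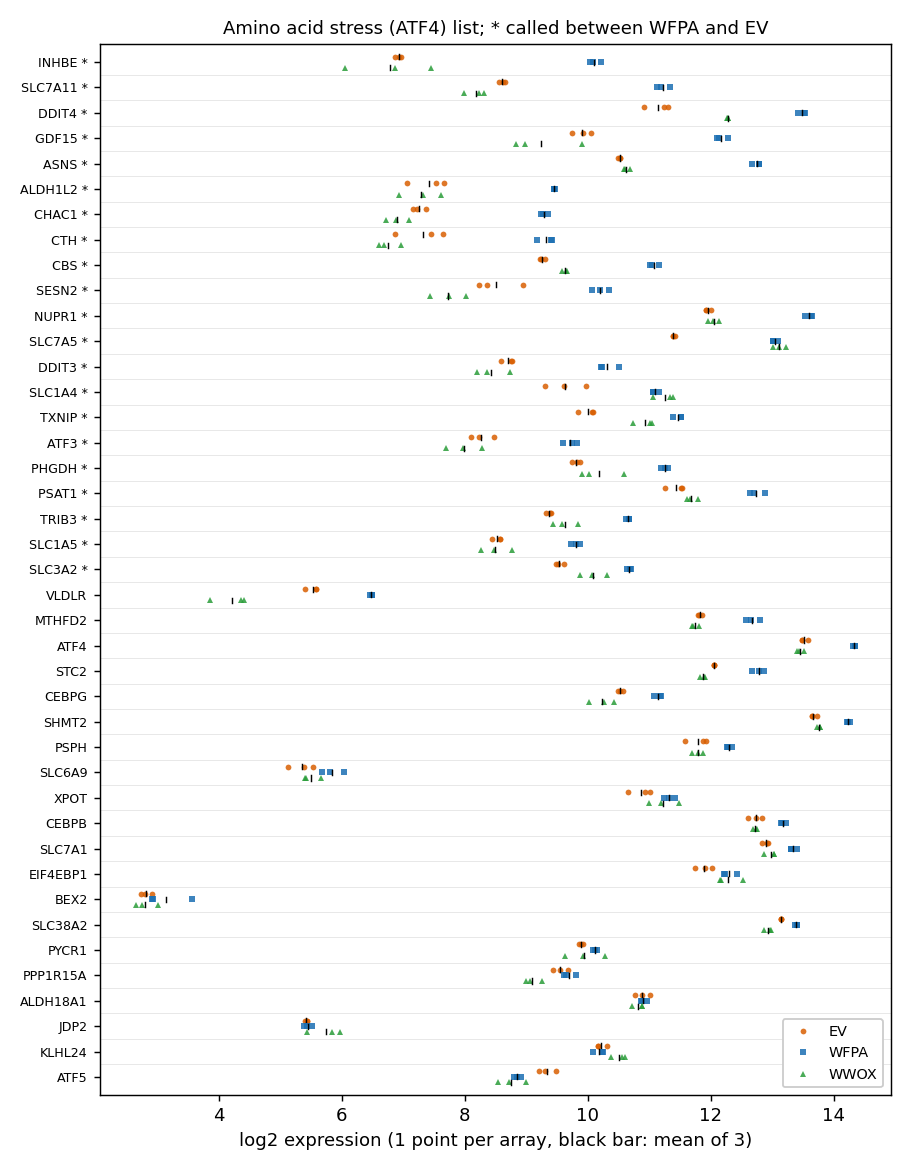
Log2 expression (x axis) of the 41 genes of the ATF4 amino acid stress list (y axis), 1 point per array, with the mean of 3 arrays as a black bar and an asterisk at the 21 genes called between WFPA and EV cells. The WFPA points lie to the right of the EV points in 35 rows, and the wild-type WWOX points lie near the EV points for ASNS (10.63 against 10.52) and near the WFPA points for SLC7A5 (13.12 against 13.04).

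In wild-type cells the list's median difference from EV cells was 0.00. Called higher in wild-type than in EV cells were 3 of 41 genes (against 2.11% of all genes), namely DDIT4 (1.13), SLC7A5 (1.72) and SLC1A4 (1.63). Called lower in wild-type than in WFPA cells were 18 of 41 (against 2.72% of all genes). These contrasts share the EV or the WFPA arrays with the comparison above. ATF4 was read at 13.46 ± 0.0616 (SD, n = 3) and ASNS at 10.63 ± 0.0555 in wild-type cells, 0.06 below and 0.11 above their EV means.

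The promoters of 3 of these genes are printed because they hold the composite element through which ATF4 dimers are known to act. The element was searched as TGATGNAA on both strands of the window from 250 bases before to 50 bases after each RefSeq start site (GRCh38.p14). It was found in 6 of 17 called genes of the list that had a sequence (ASNS, ATF3, CHAC1, SLC1A4, SLC1A5 and SLC3A2), in 3 of 16 that were not called, and in 4.46% of all genes. Below, capitals mark the match, and each window is given 5′ to 3′ on the strand of its gene. The first window is chr7:97872359-97872658 on the minus strand, the next chr15:40953221-40953520 on the plus strand and the last, for the tRNA synthetase GARS1, chr7:30594628-30594927 on the plus strand.
ASNS: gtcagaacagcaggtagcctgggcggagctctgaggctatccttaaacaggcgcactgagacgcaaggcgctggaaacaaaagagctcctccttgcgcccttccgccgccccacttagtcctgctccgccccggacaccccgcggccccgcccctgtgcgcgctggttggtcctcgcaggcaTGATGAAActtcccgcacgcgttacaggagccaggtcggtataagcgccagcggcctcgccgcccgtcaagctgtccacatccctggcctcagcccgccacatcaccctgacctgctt
CHAC1: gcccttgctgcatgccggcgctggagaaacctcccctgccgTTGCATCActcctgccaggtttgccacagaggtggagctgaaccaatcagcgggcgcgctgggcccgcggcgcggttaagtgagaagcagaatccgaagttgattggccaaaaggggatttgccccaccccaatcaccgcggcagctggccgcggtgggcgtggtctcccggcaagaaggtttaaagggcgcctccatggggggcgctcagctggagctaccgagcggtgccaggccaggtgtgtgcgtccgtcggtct
GARS1: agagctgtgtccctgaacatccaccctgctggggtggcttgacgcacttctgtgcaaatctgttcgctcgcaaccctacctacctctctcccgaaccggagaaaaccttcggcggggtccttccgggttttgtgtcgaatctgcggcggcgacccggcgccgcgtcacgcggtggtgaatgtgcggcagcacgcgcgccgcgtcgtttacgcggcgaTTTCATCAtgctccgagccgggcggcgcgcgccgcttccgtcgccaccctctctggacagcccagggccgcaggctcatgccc
Relative to the start site the match began at -68 in ASNS, -209 in CHAC1 and -33 in GARS1, and in the latter 2 it lay on the opposite strand. A match is a description of letters and no evidence of binding, and the share of the list with a match was not tested.

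Aminoacyl-tRNA synthetases, the enzymes that charge tRNAs and that ATF4 is known to raise as well, moved the same way by less. Of 17 measured cytosolic synthetase genes 4 were called higher (1.54% of all genes) and 0 lower, with a list median of 0.44 and 16 of 17 differences above 0. GARS1, the glycine enzyme, was read at 11.68, 11.85 and 11.78 in EV and 13.33, 13.28 and 13.39 in WFPA cells, 1.56 higher (standard error 0.0977, adjusted p = 3.86e-05). YARS1 rose by 1.16, from 10.89, 10.95 and 11.08 to 12.11, 12.12 and 12.16, and EPRS1 by 1.06, from 10.59, 10.66 and 10.69 to 11.64, 11.71 and 11.76. The tryptophan enzyme WARS1 was the least certain of the 4 in this fit, with a difference of 1.15 (standard error 0.265, adjusted p = 0.0347). Its call ended when any EV or WFPA array was left out (1.09 to 1.20). The SD of WARS1 was 0.65 on the wild-type arrays, which the fit includes, against 0.104 in EV and 0.0839 in WFPA cells. With only the EV and WFPA arrays in the limma fit the adjusted p was 9.03e-04. The other WARS1 probe set was called too (1.10, adjusted p = 5.22e-04). With no fold limit 8 of 17 were higher at an adjusted p under 0.05 (4.95% of all genes), among them CARS1 (0.93) and SARS1 (0.92), and 0 were lower (3.67% of all genes). The element above was found in 1 of 3 called and 5 of 11 other synthetase genes with a sequence.

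Other stress lists had few calls and list medians of at most 0.12. Among 30 ER chaperones and sensors of unfolded protein, 1 was called higher (3.33%, against 1.54% of all genes) and 0 lower, with a list median of 0.05. With no fold limit 5 of 30 were higher (16.7%, against 4.95% of all genes and 7.16% of the bright ones) and 1 lower (3.33%, against 3.67% of all genes). The called gene was HERPUD1, a part of ER-associated degradation, at 12.07 on all EV arrays and 13.10, 13.15 and 13.20 on the WFPA arrays (1.08, standard error 0.0777, adjusted p = 9.47e-05). HSPA5, the main ER chaperone BiP, was 0.41 higher (12.27, 12.26 and 12.33 against 12.69, 12.67 and 12.73, adjusted p = 0.0154) and stayed under 2-fold, as did the transcription factor XBP1 (0.82, adjusted p = 0.00405). The groups' arrays did not overlap for HSPA5, and the difference between the ER and the amino acid list was not tested. Of 27 heat shock protein genes, the small chaperone CRYAB rose (1.30) and HSPA2 fell (-1.07, not called without EV replicate 2, -0.92). Each was 3.7% of the list, against 1.54% of all genes called higher and 0.693% called lower.

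SLC7A11, already given above, was the only called gene among 42 NRF2 and glutathione redox genes (2.38%, against 1.54% of all genes), with a list median of 0.12. All WFPA arrays lay above all EV arrays for 24 of these genes (57.1%, against 16.3% of all genes and 26.9% of the bright ones). They lay below for 6 (14.3%, against 19.1% and 30.7%). With no fold limit 5 were higher (11.9%, against 4.95% of all genes and 7.16% of the bright ones) and 1 lower (2.38%, against 3.67% of all genes). HMOX1, a target of the redox transcription factor NRF2, differed by -0.14 (8.55, 8.67 and 8.21 against 8.44, 8.55 and 8.01, adjusted p = 0.704). GDF15 and SESN2, which the ATF4 list also holds, were the called genes among 28 p53 targets (7.14%, against 1.54% of all genes). CDKN1A, the p53 target that codes for the cell cycle inhibitor p21, differed by -0.06 (adjusted p = 0.815), and its arrays overlapped. Among 39 hypoxia and glycolysis genes 2 were called higher (5.13%, against 1.54% of all genes), while the list median was 0.00. With no fold limit 9 were higher (23.1%, against 4.95% of all genes and 7.16% of the bright ones) and 1 lower (2.56%, against 3.67% of all genes). Of the called genes, the growth factor VEGFA rose by 1.22, from 11.04, 10.98 and 11.14 to 12.24, 12.40 and 12.20. The prolyl hydroxylase P4HA2 was called as well (1.02, adjusted p = 0.029) but lost the call when any EV or WFPA array but EV replicate 2 was left out (0.90 to 1.12). Another of its 3 probe sets was called too (1.08, limma adjusted p = 0.00432), and the last differed by -0.01. Of 40 feedback and early genes of the kinase ERK, ATF3 and SPRY1 were called (5%, against 1.54% of all genes), the latter (1.09, adjusted p = 0.0274) not without EV replicate 1, EV replicate 3, WFPA replicate 1 or WFPA replicate 2 (0.92 to 1.07).

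Cell cycle genes were lower in the mutant cells by small amounts. Of 56 DNA replication and G1/S genes, 0 were called higher and 1 lower (1.79%, against 0.693% of all genes). Of 72 genes of mitosis and chromosome segregation 0 were called in either direction. The list medians were -0.31 and -0.30. All WFPA arrays lay below all EV arrays for 37 of 56 replication genes (66.1%) and 56 of 72 mitosis genes (77.8%), against 19.1% of all genes and 30.7% of the bright ones. With no fold limit, 16 replication genes (28.6%) and 20 mitosis genes (27.8%) were lower at an adjusted p under 0.05, against 3.67% of all genes and 6.86% of the bright ones. In the other direction the counts were 1 and 0 (4.95% of all genes and 7.16% of the bright ones). When each EV or WFPA array was left out in turn, the counts of lower genes fell to between 6 and 8 for replication and between 7 and 13 for mitosis, as the number of lower genes in the whole table fell from 726 to between 363 and 421, and the medians stayed between -0.28 and -0.33.

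CLSPN, the checkpoint mediator claspin, was the called replication gene, at 9.35, 9.68 and 9.69 in EV and 8.53, 8.36 and 8.38 in WFPA cells (-1.15, standard error 0.111, adjusted p = 4.56e-04). Its other 3 probe sets differed by -0.80, -0.40 and -0.10 without a call, and with the mean of all probe sets (-0.61) the list held 0 called genes. Examples under 2-fold were the sliding clamp PCNA (-0.63, adjusted p = 0.00653), the transcription factors E2F1 (-0.62) and E2F2 (-0.61), and the replication licensing factor CDC6 (-0.61, adjusted p = 0.0386). The licensing helicase subunit MCM4 was 0.45 lower (adjusted p = 0.00972) while MCM2 differed by -0.03 (adjusted p = 0.935), and RFC2, a clamp loader subunit, was 0.57 higher (adjusted p = 0.0297). Subunits of the same complexes thus differed in size of change. In mitosis, the kinetochore gene CENPI (-0.87), the cytokinesis motor KIF23 (-0.74), the spindle checkpoint kinase BUB1B (-0.62) and the polo kinase PLK1 (-0.49) were lower at adjusted p-values of 0.00261 to 0.0494. The proliferation marker MKI67 was read at 8.94, 9.11 and 9.48 in EV and 8.92, 8.40 and 8.61 in WFPA cells, a difference of -0.53 that did not pass (adjusted p = 0.103).

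The list of cyclins, CDKs and CDK inhibitors outside S phase and mitosis held 1 riser and 1 faller among 22 measured genes (4.55% each, against 1.54% and 0.693% of all genes). The faller, GAS1, belongs to none of these classes. The G1 kinase CDK6 rose by 1.25, from 7.49, 7.81 and 7.94 to 8.99, 8.83 and 9.17 (adjusted p = 9.83e-04). GAS1, a growth arrest gene and Hedgehog co-receptor, fell by 1.67, from 9.15, 8.94 and 9.03 to 7.44, 7.24 and 7.43 (adjusted p = 4.12e-05), and was at 12.06 ± 0.13 (SD, n = 3) in wild-type cells. The dimmer probe sets of GAS1 differed by -0.15 and -0.34 and were not called. CCND1, cyclin D1, differed by -0.30 (12.90, 12.93 and 12.88 against 12.50, 12.67 and 12.62, adjusted p = 0.0637), and CCNE2 by -0.58 (adjusted p = 0.0534).

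Most interferon-stimulated genes had differences above 0 and under 2-fold. Of 71 measured, 5 were called higher (7.04%, against 1.54% of all genes) and 1 lower (1.41%, against 0.693%). The list median was 0.16, and 48 of 71 differences were above 0. All WFPA arrays lay above all EV arrays for 28 of 71 (39.4%, against 16.3% of all genes and 26.9% of the bright ones) and below for 5 (7.04%, against 19.1% and 30.7%). The gene that fell was CMPK2, already the largest fall of all genes. Its neighbour in the genome and partner in the interferon response, RSAD2, differed by 0.04 (adjusted p = 0.957). APOL6 rose by 1.36, from 7.17, 7.12 and 7.32 to 8.71, 8.34 and 8.64 (standard error 0.117, adjusted p = 2.54e-04), and the apoptosis-related XAF1 rose by 1.34, from 6.11, 5.28 and 5.25 to 6.62, 6.84 and 7.19 (adjusted p = 0.0105). OASL (1.21), DDX60L (1.11) and BST2 (1.02), which was named after its values were seen, lay near the limit. Without EV replicate 1 they had differences of 1.12 (adjusted p = 0.0559), 0.99 and 0.97, and the list kept 2 called risers. OASL was also not called without WFPA replicate 1 (0.95), DDX60L without WFPA replicate 2 (1.00) and BST2 without WFPA replicate 3 (0.98).

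ISG15, IFIT1 and MX1, common readouts of interferon signaling, did not pass the test. ISG15 was read at 11.60, 11.73 and 11.64 in EV and 11.31, 11.34 and 11.42 in WFPA cells (-0.30, adjusted p = 0.409). IFIT1 differed by 0.12 (adjusted p = 0.751) and MX1 by 0.27 (adjusted p = 0.511), both with overlapping arrays. With no fold limit 11 of 71 genes were higher at an adjusted p under 0.05 (15.5%, against 4.95% of all genes and 7.16% of the bright ones) and 1 lower. The higher ones included IFIT2 (0.58), IFI16 (0.66) and the RNA sensor IFIH1 (0.56), and their number was 6 to 8 when 1 EV or WFPA array was left out. The interferon response element, the ISRE, searched on both strands of the same windows, was present in 2 of 3 called risers with a sequence and in 37 of 53 other list genes, against 4.38% of all genes.

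Several class I antigen presentation genes, which interferon is known to raise, were higher by small amounts. HLA-B was read at 11.88, 11.92 and 12.05 in EV and 12.97, 12.91 and 12.98 in WFPA cells, a difference of 1.01 (standard error 0.0898, adjusted p = 3.1e-04) on the edge of the 2-fold limit, and it was not called without EV replicate 1, EV replicate 2, WFPA replicate 1 or WFPA replicate 3 (0.97 to 1.00). HLA-C (0.71), HLA-F (0.56), HLA-G (0.53) and HLA-E (0.39) were higher at adjusted p-values of 0.00364 to 0.025. HLA genes are near-identical in sequence, so their probe sets may read each other. Of 40 genes of antigen presentation and checkpoint ligands 1 was called higher (2.50%, against 1.54% of all genes), 0 were lower, and the median was 0.07. CD274, the checkpoint ligand PD-L1, differed by 0.13 (adjusted p = 0.568).

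Among 58 cytokine and chemokine genes and their NF-kB response, 2 were called higher (3.45%, against 1.54% of all genes) and 0 lower. IL32 rose by 2.72, from 7.13, 7.27 and 7.22 to 9.76, 9.98 and 10.03 (standard error 0.125, adjusted p = 6.28e-06), and wild-type cells had 6.98 ± 0.213 (SD, n = 3). IL15, a growth factor of lymphocytes, rose by 2.55, from 5.60, 4.40 and 5.46 to 7.47, 7.70 and 7.96 (adjusted p = 0.00104). In both genes the lowest WFPA array lay above the highest EV array by more than the spread within either group.

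Matrix genes changed in both directions. Of 39 collagen genes 3 were called higher (7.69%, against 1.54% of all genes) and 2 lower (5.13%, against 0.693%), with a median of -0.04. COL8A1 rose by 2.39, from 4.60, 5.38 and 4.48 to 7.49, 7.08 and 7.04. The basement membrane chain COL4A1 rose by 2.27, from 4.40, 4.86 and 3.82 to 6.44, 6.93 and 6.52. COL8A1 was called at 1 of 3 probe sets (lowest difference 0.02) and COL4A1 at 1 of 2 (the other 0.10). The fibrillar chain COL1A2 rose by 1.52, from 5.88, 5.60 and 5.76 to 7.22, 7.27 and 7.31 (adjusted p = 9.96e-05), whereas its partner chain COL1A1 differed by -0.05 (7.50, 7.25 and 7.41 against 7.25, 7.39 and 7.35, adjusted p = 0.832). Both chains of type I collagen thus did not change together at these probe sets. COL15A1 fell by 1.93, from 10.34, 9.90 and 10.25 to 8.28, 8.19 and 8.22, and COL5A1 fell by 1.35, from 7.39, 7.40 and 7.55 to 5.62, 6.32 and 6.38.

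Laminins and other matrix glycoproteins held 4 risers (6.35%, against 1.54% of all genes) and 5 fallers (7.94%, against 0.693%) among 63 measured genes. ECM2 was read at 6.44, 6.35 and 6.82 in EV and 10.10, 10.14 and 9.78 in WFPA cells. CCN2, the connective tissue growth factor, rose by 2.84, from 5.54, 5.81 and 5.36 to 8.31, 8.41 and 8.50 (standard error 0.146, adjusted p = 1.03e-05). The matrilin MATN2 (1.96) and MGP, an inhibitor of calcification (1.79), were called higher. Each was called at 1 of 2 probe sets, the other differing by 0.02 in MATN2 and by -0.02 in MGP. MGP was far higher still in wild-type cells (10.60 ± 0.154, SD, n = 3, against 5.76 in WFPA and 3.96 in EV cells). RELN, the secreted guidance protein reelin, fell by 1.76, from 9.12, 9.12 and 9.54 to 7.63, 7.42 and 7.44, and CCN5, a relative of CCN2, fell by 1.36. Periostin, POSTN, fell by 1.23 (adjusted p = 0.0143, not called without EV replicate 2, WFPA replicate 1 or WFPA replicate 2, -1.10 to -1.23). POSTN was called at 1 of 4 probe sets (smallest difference -0.01). TGFBI (-1.11) and the laminin chain LAMA4 (-1.02, not called without WFPA replicate 2, -0.96) also fell. Fibronectin, FN1, differed by 0.30 (adjusted p = 0.233), and its 7 probe sets ranged from -0.66 to 0.32 with no call. SPARC differed by -0.07 (adjusted p = 0.684) at its brightest probe set and by 0.45 at the other (limma adjusted p = 0.0147, under 2-fold).

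HAPLN1 and the heparan sulfate proteoglycan HSPG2 (1.05, not called without EV replicate 1, 0.98) were the called genes among 37 proteoglycan and hyaluronan genes (5.41%, against 1.54% of all genes). The other HSPG2 probe set differed by 0.20 (not called). Of 50 genes of the metalloproteinase and plasminogen-system list, which also holds the lysosomal protease CTSS, 2 were called higher and 2 lower (4% each, against 1.54% and 0.693% of all genes). MMP1, which cleaves fibrillar collagen, fell by 2.59, from 12.21, 12.08 and 12.06 to 9.50, 9.55 and 9.53 (standard error 0.116, adjusted p = 5.39e-06), a 6.01-fold change, and was lower again in wild-type cells (8.26 ± 0.222, SD, n = 3). ADAMTS2, which trims procollagen, fell from 9.87, 10.01 and 9.82 to 6.63, 6.83 and 6.80. ADAMTS12 (1.31) and CTSS (1.33, not called without WFPA replicate 1 or WFPA replicate 3, 1.21 and 1.31) rose. ADAMTS12 was called at 1 of 2 probe sets (the other 0.09) and CTSS at 1 of 3 (the others 0.16 and 0.37). The gelatinase MMP2 differed by -0.09 (6.73, 6.79 and 6.93 against 6.90, 6.59 and 6.71, adjusted p = 0.732).

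Among 31 protease inhibitors 2 were called higher (6.45%, against 1.54% of all genes) and 1 lower (3.23%, against 0.693%). TIMP3, a matrix-bound inhibitor of metalloproteinases, rose by 1.55, from 8.77, 8.95 and 8.73 to 10.26, 10.42 and 10.42 (standard error 0.0961, adjusted p = 3.84e-05), and all 4 of its probe sets were called. The cystatin CSTA rose by 1.77 and SERPINF1 fell, from 6.37, 6.56 and 7.44 to 4.31, 4.32 and 4.03. Of 22 genes of collagen crosslinking and processing, P4HA2 rose and PCOLCE2, an enhancer of procollagen cleavage, fell by 1.10 (not called without WFPA replicate 1, -0.98). Each was 4.55% of the list, against 1.54% of all genes called higher and 0.693% called lower.

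**Figure D3:**
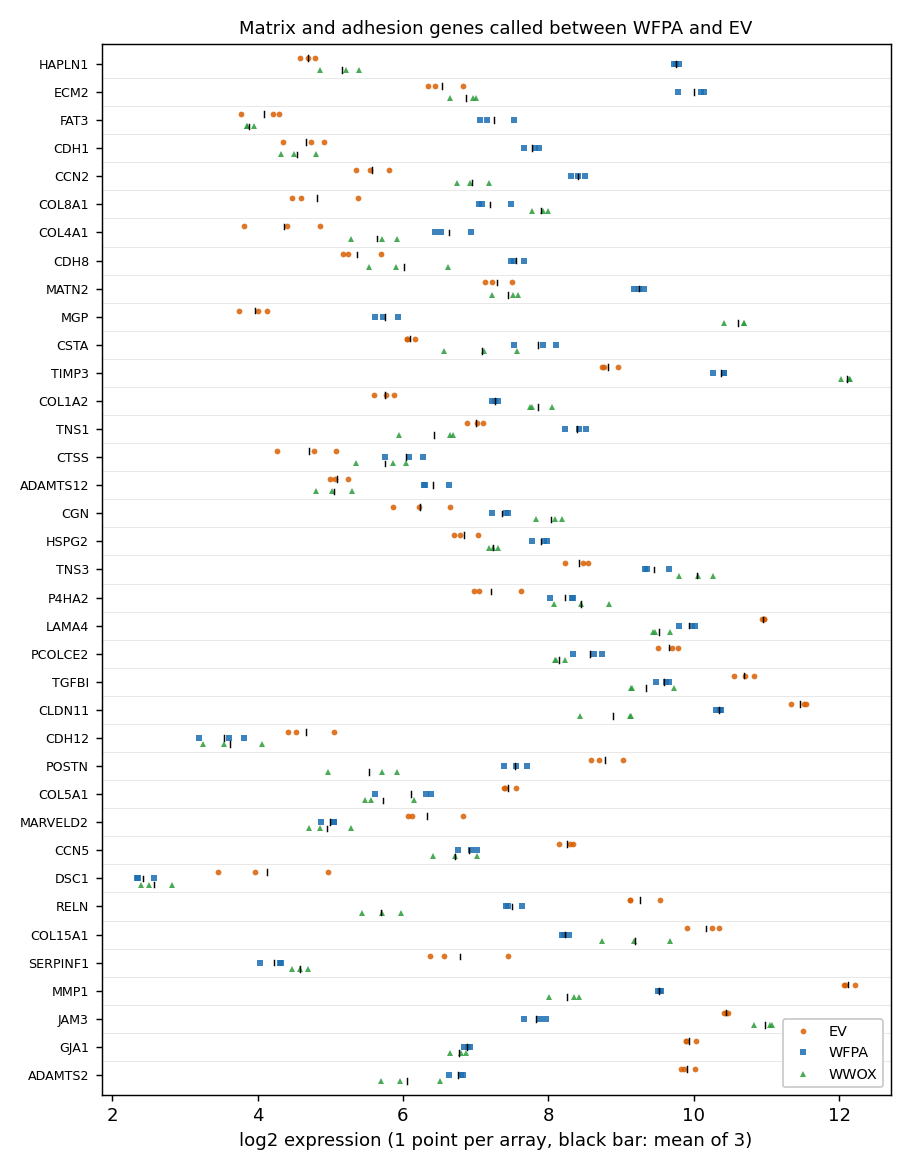
Log2 expression (x axis) of the 37 matrix, protease and adhesion genes called between WFPA and EV cells (y axis, ordered by difference), 1 point per array, with the mean of 3 arrays as a black bar. The EV and WFPA points do not overlap in any row, as in all called genes. The wild-type WWOX points lie with the EV points for CDH1 (4.54 against 4.67) and with the WFPA points for GJA1 (6.77 against 6.89).

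Cadherins gave the largest adhesion changes. CDH1, the epithelial cadherin, was read at 4.35, 4.91 and 4.74 in EV and 7.81, 7.87 and 7.66 in WFPA cells, an 8.64-fold rise (3.11, standard error 0.168, adjusted p = 1.43e-05), at 1 of its 2 probe sets, while the other differed by -0.12. Its level was 4.54 ± 0.244 (SD, n = 3) in wild-type cells. The large cadherin FAT3 rose by 3.15, from 3.77, 4.30 and 4.21 to 7.16, 7.06 and 7.52, and the neuronal cadherin CDH8 by 2.19, from 5.25, 5.70 and 5.17 to 7.52, 7.49 and 7.67. The CDH8 rise was called at 1 of 4 probe sets, the others differing by -0.08, -0.02 and 1.39, and the mean of all 4 (0.87) was not called. CDH2, the neural cadherin, was at 11.99 on all EV arrays and 12.05, 12.07 and 11.99 on the WFPA arrays (0.05, adjusted p = 0.806). Of 50 cadherin, catenin and desmosome genes 3 were called higher (6%, against 1.54% of all genes) and 2 lower (4%, against 0.693%), the latter DSC1 (-1.70) and CDH12 (-1.13), both at means under 5. DSC1 was not called without WFPA replicate 2 or WFPA replicate 3 (-1.66 each), nor CDH12 without EV replicate 1, EV replicate 2, WFPA replicate 1 or WFPA replicate 2 (-0.94 to -1.20).

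Cell junction genes moved both ways. Of 39 genes of the claudin and tight junction list, which also holds the gap junction gene GJA1, 4 were called lower (10.3%, against 0.693% of all genes). Called higher was 1 (2.56%, against 1.54%). GJA1 was read at 10.03, 9.89 and 9.89 in EV and 6.84, 6.89 and 6.92 in WFPA cells, 8.29-fold lower (-3.05, standard error 0.0907, adjusted p = 6.46e-07). JAM3 fell from 10.41, 10.47 and 10.44 to 7.96, 7.66 and 7.88 at its brightest of 3 probe sets, while the dimmer ones differed by -0.35 and -0.13 (not called). CLDN11 (-1.12) and MARVELD2 (-1.35) fell, and the tight junction adaptor CGN rose by 1.12 (not called without EV replicate 1, 0.93). Each was called at 1 probe set only. The others differed by -0.84 and -0.09 in CLDN11, -0.51 in MARVELD2 and 0.03 in CGN. CLDN1 differed by 0.43 (adjusted p = 0.263).

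Integrin and neuronal adhesion lists had few calls. Of 50 integrin and focal adhesion genes 2 were called higher (4%, against 1.54% of all genes) and 0 lower, the actin-linking tensins TNS1 (1.39) and TNS3 (1.03, not called without EV replicate 3 or WFPA replicate 2, 0.94 and 0.93). TNS1 was called at 2 of 5 probe sets (lowest difference -0.17) and TNS3 at 1 of 2 (the other 0.07). With the mean of all probe sets neither was called (0.53 and 0.55). ITGB3, the melanoma-associated integrin beta chain, differed by -0.44 (8.59, 9.05 and 8.48 against 8.45, 8.29 and 8.05, adjusted p = 0.21). None of 51 immunoglobulin-type and neuronal adhesion genes was called (0 by limma at 2-fold and also 0 with no fold limit).

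Regulators of the mesenchymal state were called in both directions, 4 of 39 higher (10.3%, against 1.54% of all genes) and 2 lower (5.13%, against 0.693%). SNAI2, the transcriptional repressor Slug, rose by 1.68, from 7.29, 7.43 and 7.83 to 9.22, 9.22 and 9.16 (standard error 0.159, adjusted p = 4.32e-04), and was at 10.28 ± 0.235 (SD, n = 3) in wild-type cells. TWIST1 (-0.23, adjusted p = 0.555) and ZEB1 (-0.13, adjusted p = 0.679), other repressors of CDH1, did not pass. The smooth muscle actin-binding gene TAGLN rose by 1.60 and its companion ACTA2 by 1.10 (not called when any EV or WFPA array but EV replicate 2 was left out, 0.90 to 1.19). ACTA2 was called at 1 of 3 probe sets (lowest difference -0.17), and the mean of all 3 (0.30) was not called. The activin chain INHBA rose by 1.14 (not called without EV replicate 2, 0.94) at 1 of 3 probe sets (the others 0.17 and 0.24). The homeobox gene PRRX1 fell by 1.40, from 9.15, 9.11 and 9.10 to 7.66, 7.77 and 7.75, and NOG, an antagonist of BMP ligands, by 1.21. Vimentin, VIM, differed by 0.02 (adjusted p = 0.916).

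In the Wnt pathway WNT5A, a ligand of noncanonical signaling, rose by 2.43, from 3.88, 3.59 and 3.03 to 5.48, 6.76 and 5.54 (standard error 0.331, adjusted p = 0.00312). It was the 1 called gene of 46 (2.17%, against 1.54% of all genes called higher). Its other probe set differed by 0.49 and was not called. AXIN2, a transcriptional target of canonical signaling, differed by -0.11 (adjusted p = 0.676). DVL2, whose protein is a known WWOX partner, differed by -0.05 (adjusted p = 0.8), and SMAD3, the TGF-beta mediator, by -0.25 (adjusted p = 0.165).

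Markers of other cell types were read to see what the cells express. None of 26 melanocyte lineage markers was called between the groups by limma. With no fold limit 3 were higher (11.5%, against 4.95% of all genes) and 2 lower (7.69%, against 3.67%). MITF, the melanocyte master regulator, was read at 11.89, 11.83 and 11.90 in EV and 11.45, 11.33 and 11.43 in WFPA cells, 0.47 lower on the log2 scale (adjusted p = 0.0266, under 2-fold). PAX3 (9.96 and 10.21), GPR143 (11.32 and 11.45) and GPNMB (11.74 and 12.05) of this list were also bright, whereas the defining markers MLANA (4.38 and 4.42) and TYRP1 (2.26 and 2.31) were near or under the lower quartile in both groups. SOX10, a further defining marker, lay between the lower quartile and the median of the arrays (4.89 and 5.33, and 5.61 and 5.60 at its other probe set). Of 26 epithelial markers CDH1 alone was called, and it was higher (3.85%, against 1.54% of all genes). Of 16 fibroblast markers COL1A2 and ACTA2 were called higher (12.5%, against 1.54% of all genes) and POSTN lower (6.25%, against 0.693% of all genes). Of 13 endothelial markers 0 were called (also 0 with no fold limit). Among 20 haematopoietic markers 1 was called higher and 1 lower (5% each, against 1.54% and 0.693% of all genes). The embryonic globin HBE1 rose by 2.09, from 8.84, 9.08 and 8.88 to 10.90, 11.03 and 11.14, at 1 of 2 probe sets (the other -0.10). PTPRC, the leukocyte phosphatase CD45, fell by 2.21, from 9.88, 10.04 and 9.72 to 7.61, 7.51 and 7.88. The T-cell marker CD3E (3.06 and 3.21), the B-cell marker MS4A1 (3.73 and 3.48) and the macrophage marker CD163 (4.31 and 4.27) were near or under the lower quartile in both groups. Of 11 reference genes 0 were called (1 was higher with no fold limit, 9.09% against 4.95% of all genes), with GAPDH at 14.16 in both groups.

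**Figure D4:**
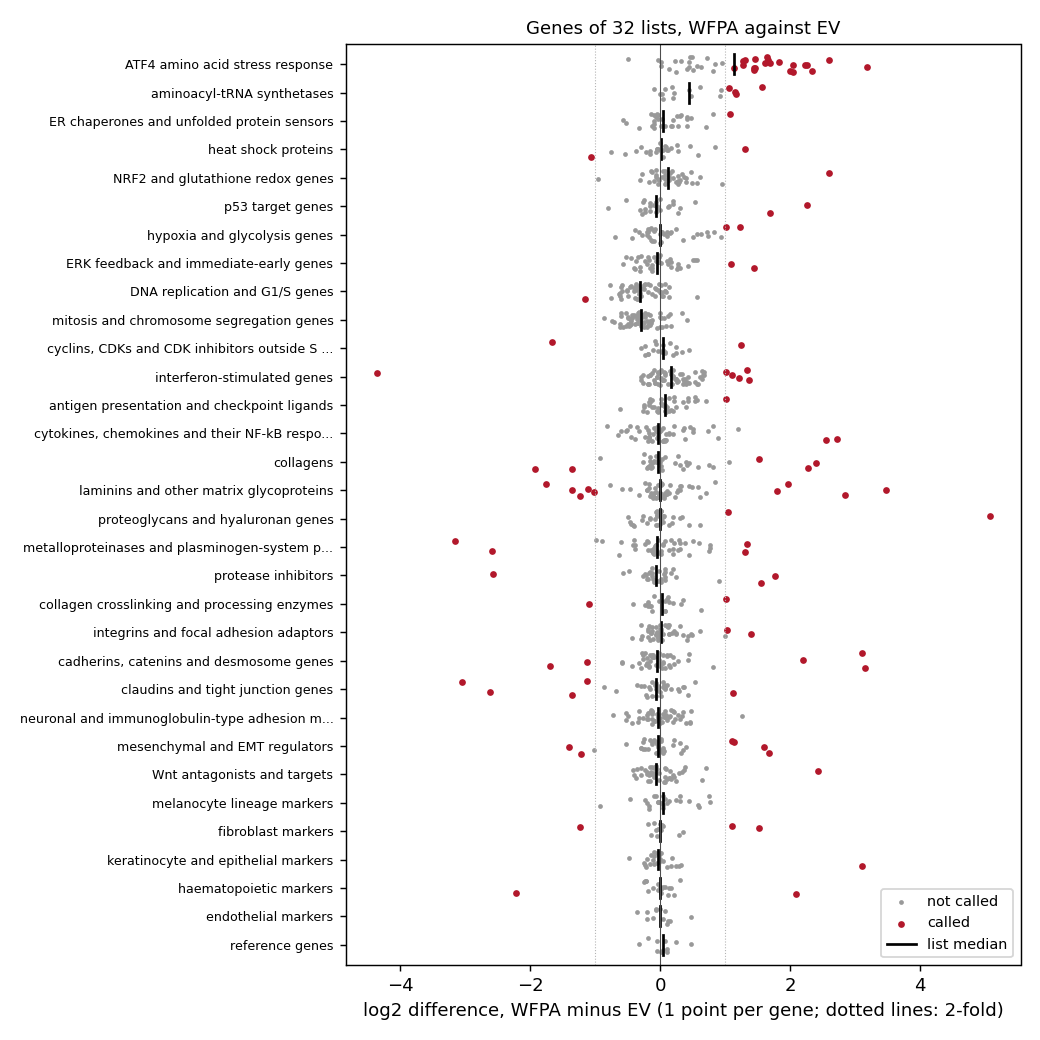
Differences between WFPA and EV cells (x axis, log2, dotted lines at 2-fold) for each gene of the 32 lists (y axis), with called genes in red, other genes in grey and the list median as a black bar. The median of the ATF4 list lies at 1.14 and that of the synthetases at 0.44, those of the replication and mitosis lists lie at -0.31 and -0.30, and the other medians lie between -0.06 and 0.16.

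By chromosome, median expression levels of the 2 lines differed a little. Medians were read over the 12494 genes that had a chromosome in RefSeq and a mean above the median of all probe set means. The median difference of all these genes was -0.02, and position along a chromosome was not examined. The median was 0.28 over 206 genes of chromosome 13 (72.3% above 0) and 0.21 over 140 genes of chromosome 21 (75%), against 46.5% above 0 over all these genes. It was -0.15 over 398 genes of chromosome 14 and -0.13 over 388 genes of chromosome 15 (27.1% above 0 in each). The EV and WFPA arrays did not overlap at these 4 chromosomes, as at 15 of 23 chromosomes in all, and the shifts had the same sign with any EV or WFPA array left out (0.24 to 0.27 for chromosome 13). They shrank when dim genes were included, to 0.02 for chromosome 13, 0.06 for chromosome 21 and -0.10 for chromosomes 14 and 15. The wild-type cells differed from EV cells by -0.03, 0.19, -0.21 and 0.09 at chromosomes 13, 21, 14 and 15.

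**Figure D5:**
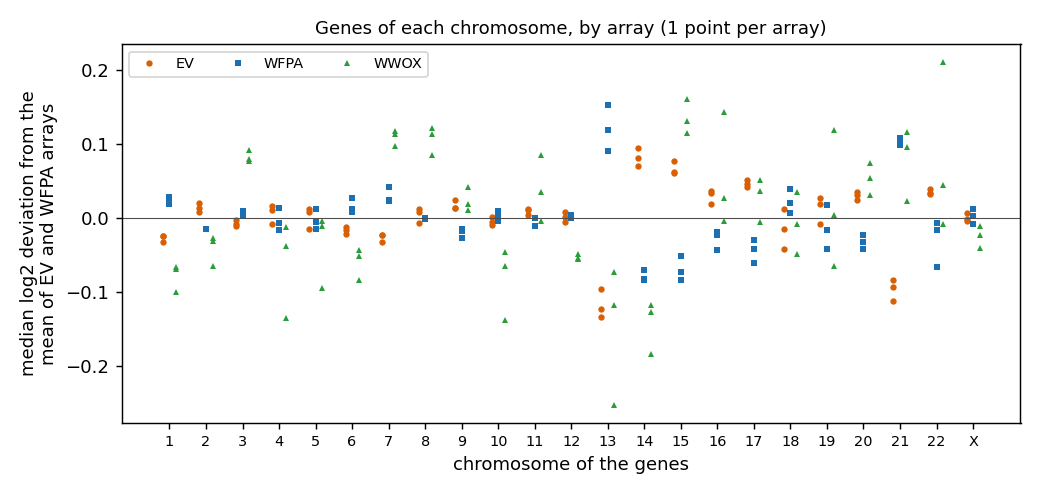
Median log2 deviation of the genes of each chromosome from the mean of the EV and WFPA arrays (y axis), by chromosome (x axis), 1 point per array. The WFPA points lie above the EV points at chromosomes 13 (0.091 to 0.153 against -0.134 to -0.096) and 21, and below them at chromosomes 14 and 15.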

How the data were processed

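Expression was read on 9 Affymetrix U133 Plus 2.0 arrays, of which the 3 EV and 3 WFPA arrays were compared. Partek Genomics Suite 6.5 was used by the authors on the scans. What they deposited is log2 intensity per probe set. The background and normalization methods are not given in the sources used here, and no further normalization was applied. Of 54675 probe sets, 62 array controls were left out and 54613 tested. The platform annotation gives a single gene for 41091 of these, more than 1 for 1801 and no gene for 11721.

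Group means over all 9 arrays were fitted with limma 3.58.1 in R 4.3.3 (6 residual and 3.04 prior degrees of freedom), and WFPA minus EV was the contrast. The call limits were an adjusted p under 0.05 over all probe sets and 2-fold, beside the 4-fold limit of the methods. Groups came from the array names. Named genes were a hand-written set of key genes, the 15 largest rises and falls without overlap of arrays and, in each of 32 lists, up to 5 called genes of largest change, and other genes named were chosen after their values were seen. The members and lists were chosen with earlier results of these data known. Of 1238 listed genes 1165 were read, and the others were not analysed here. The gene order and promoters are from RefSeq (GRCh38.p14). The fit was tested on simulated data. Replicate numbers did not pair the arrays, since residuals of same-numbered EV and WFPA arrays correlated at -0.0108, -0.049 and -0.0521. The number of arrays limits the precision. Alternatives were other variance models, adjustments, fold limits, filters on dim probe sets, scalings, probe set choices, a replicate block and each array left out. Figures were drawn with Python 3.11.15, pandas 2.3.3, numpy 2.4.6 and matplotlib 3.10.9.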

Additional observations from a re-analysis of the deposited data

How the results depend on the processing

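The counts of 687 higher and 259 lower probe sets moved by over 1.5 times only with other limits, among the settings tried. They were 150 and 54 with Bonferroni adjustment, 2206 and 1421 with no fold limit, and 143 and 40 at 4-fold. At the brightest WWOX probe set the difference of 1.30 was no longer called with Bonferroni adjustment or at 4-fold. Leaving out each of the 9 arrays in turn gave 586 to 706 higher and 219 to 268 lower probe sets and a WWOX difference of 1.20 to 1.46. The variance model, the arrays in the fit, the dim-probe filters and the scalings gave 486 to 721 higher and 186 to 271 lower probe sets, and no setting turned a call. With the replicate number as a block the counts were 658 and 248, and of the named genes CDH12 alone lost its call (-1.13, adjusted p = 0.0546).

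Of 125 named genes besides WWOX, the mean of all probe sets in place of the brightest ended 30 calls (MATN2 at 0.99, YARS1 at 0.80, ATF3 at 0.88, CDK6 at 0.57 and GAS1 at -0.72 among them), the plain model without moderation ended 10, and any single array left out at most 10. Bonferroni adjustment and the 4-fold limit ended 48 each. Alternatives of the list counts with no fold limit were chosen after seeing the data, and for lower replication and mitosis genes the replicate block gave 8 and 11, against 16 and 20. The chromosome medians, their alternatives also chosen after seeing the data, kept their sign throughout. Genes below the lower quartile of the arrays have no known background, which limits the size of their changes.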

Other observations

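The leading genes were set against their neighbours in the genome. Of the 60 genes next to the 30 leading genes on either side in the RefSeq order, 1 was called the same way, LRRK1 beside ALDH1A3 (-1.14, adjusted p = 0.0155, not called without EV replicate 1, EV replicate 2, WFPA replicate 2 or WFPA replicate 3, -0.97 to -1.14), and 1 the opposite way, SEMA3E beside PCLO. The median absolute difference of these neighbours was 0.13. SEMA3E, a secreted guidance cue, had a difference of -1.91 (adjusted p = 0.018, adjusted p 0.0511 to 0.0756 when each EV or WFPA array was left out in turn), while the next gene, SEMA3A, rose by 1.56 (4.75, 5.23 and 4.89 on the EV arrays, 6.60, 6.42 and 6.53 on the WFPA arrays). CMPK2 and RNF144A, 2 of the 3 largest falls, both lie on chromosome 2 with RSAD2 (0.04) and GRASLND (-0.16) between them. HAPLN1 lies between VCAN (0.01), a proteoglycan gene, and EDIL3 (0.07) on chromosome 5, neither of which was called.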
